A study of Mus musculus with 5 samples.

Results

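A group of 10 genes of the germline programme was followed in embryonic stem cells of the mouse, wild-type or mutant in Trip12: Dazl, Ddx4, Taf7l, Sycp1, Sycp3, Hormad1, Mael, Asz1, Stk31 and Slc25a31. A probe set belonged to the group if the platform annotation gave it 1 gene symbol and that symbol was one of these names, and the values that chose among several probe sets of a gene were their means: the probe set was selected on the highest mean over the 5 arrays. The genes themselves were proposed with differences between these arrays already known, so their differences are given as a description. This gave 10 of 18193 genes, from 13 of 45037 probe sets. The cells were the line E14, grown on mouse embryo fibroblast feeder cells in medium with leukaemia inhibitory factor (100 units/ml), serum replacement (14%) and fetal bovine serum (1%). Per the labels, 2 arrays came from wild-type cells (WT) and 3 from Trip12 mut/mut cells, in which both copies of the gene carry a mutation, and every sample is called a biological replicate. Trip12 is an E3 ubiquitin ligase of the HECT type, an enzyme that marks proteins with ubiquitin. The nature of the mutation, how the replicates were made and whether feeder cells were removed before RNA extraction are not stated in the labels. The spread between arrays of a group may therefore be technical.

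Germline genes of this kind are silenced in somatic tissues by methylation of CpG-rich promoters, which the de novo methyltransferases Dnmt3a and Dnmt3b lay down around implantation. In embryonic stem cells many of them are also held down by a Polycomb complex, PRC1.6. Its subunits Mga and Max bind the E-box CACGTG, and its subunit E2f6, with its partner Tfdp1, binds an E2F core, TCCCGC. When methylation or PRC1.6 is lost, many of these germline genes are transcribed outside the germline.

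All values are log2 RMA values, in which a difference of 1 is 2-fold, and each difference is the mutant mean less the WT mean. Mutant replicate 1 is called the mutant array labelled 1, because its values lie with WT. Trip12 itself, on its brightest probe set, read 10.17 and 10.25 in WT, 10.18 on the mutant array labelled 1, and 12.09 and 12.57 on replicates 2 and 3. The place of that probe set relative to the mutation is unknown here, so whether its signal reports functional transcript is not known. Over all probe sets the mutant array labelled 1 was as near to each WT array (SD of differences 0.123 and 0.124) as these were to each other (0.123), with 0 probe sets past 2-fold in any of these pairs. Replicates 2 and 3 differed from a WT array by more than 2-fold at 293 to 545 probe sets. Each result is therefore given with and without the mutant array labelled 1. Embryonic stem cell markers were well represented, with all 10 markers above the median of all probe sets, 5.52, on every array. On replicates 2 and 3, 5 of the 10 lay below both WT arrays and 2 above. In the comparison of 4 arrays described below, 1 of the 10 was called, Utf1 (-0.80, limma adjusted p = 0.0422), and Esrrb differed by 0.57 (0.0501). Of 30 fibroblast markers 29 were measured. Their summed linear signal was 60507 and 61277 in WT, 60324 on the mutant array labelled 1, and 87586 and 87263 on replicates 2 and 3. Fap was below the median of all probe sets on every array, and RMA lists no gene at 0. In the comparison of 4 arrays, 7 of the 28 markers tested were called higher and 1 lower, where 3.29% and 1.34% of all genes tested were. Those with the smallest adjusted p were Timp3 (1.28), Twist2 (0.90) and Prrx1 (0.66), higher, and Cnn1 (-1.1), lower (limma, adjusted p from 0.0402 to 0.0420). Of the 29 measured, 21 lay above both WT arrays on replicates 2 and 3 (35.2% of all genes tested) and 1 below (22.1%). The median difference of the 29 was 0.53, against 0.05 in the genes tested. In limma, 21 of the 28 had an unadjusted p under 0.05, against 28.8% of all genes tested. The part of the feeder cells in the results below was not tested, and in such bulk RNA fewer cells of a type cannot be told apart from less RNA per cell.

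The germline genes did not move one way. Their WT means ran from 6.18 for Asz1 to 11.25 for Sycp3, all above the median of all probe sets, 5.52. On replicates 2 and 3, Dazl and Taf7l were more than 2-fold above WT, Sycp3 was more than 2-fold below it, and Mael was lower by less. Asz1, Ddx4, Hormad1, Slc25a31 and Sycp1 were on average higher by less than 0.5 on the log2 scale, and Stk31 lay within 0.04 of its WT mean. On the mutant array labelled 1 all 10 genes were within 0.15 of the WT mean, and the largest distance was 0.12, in Dazl.

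**Figure D1:**
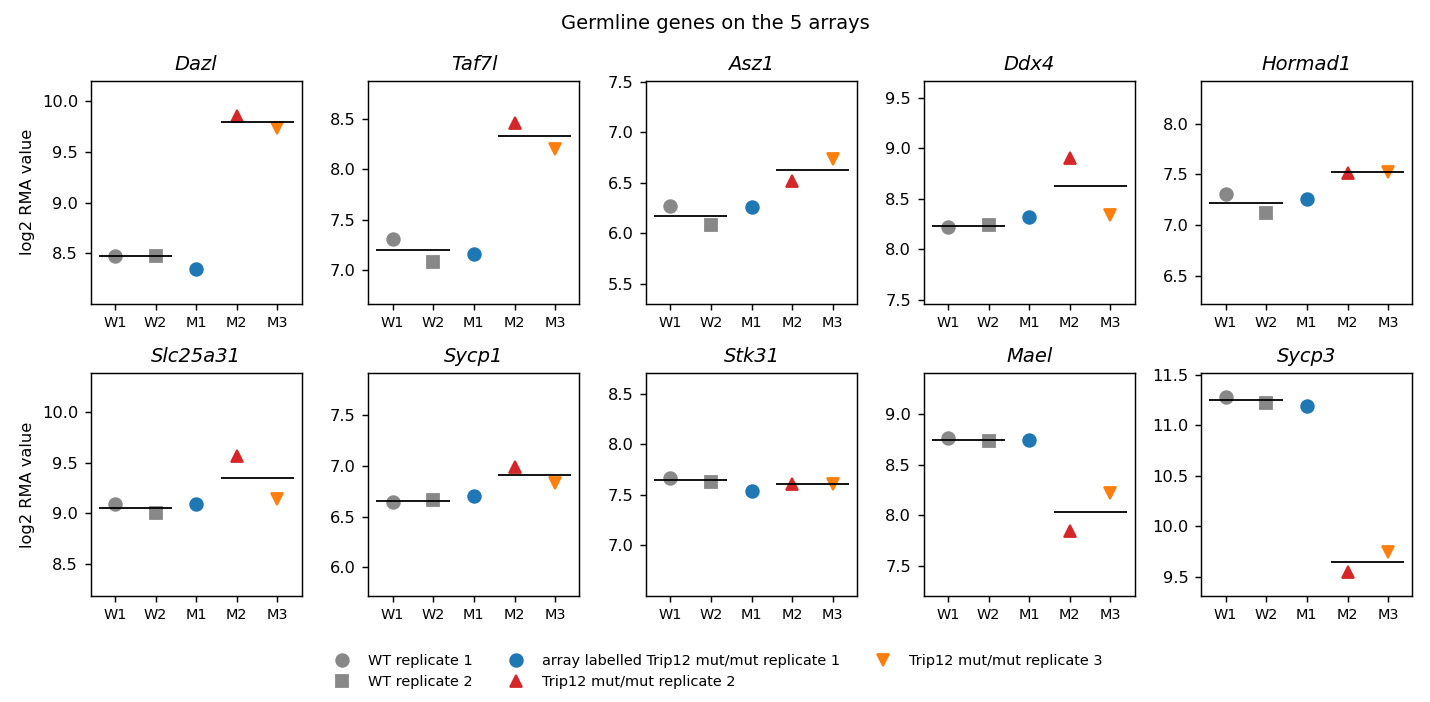
Log2 RMA values of the 10 genes on each array (W1 and W2, WT; M1 to M3, Trip12 mut/mut replicates 1 to 3), with every panel spanning the same range. Bars are means of the WT arrays and of M2 and M3; M1 lies within 0.15 of the WT mean in all 10 panels, and M2 and M3 stand highest above it in Dazl and Taf7l and lowest below it in Sycp3.

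The promoter windows of the genes with the largest differences are shown because the regulators named above act at promoters of such genes. Neither binding nor methylation was measured in these windows. Each runs from 250 bases before to 50 bases after the annotated start, from RefSeq, build GRCm38.p6, 5′ to 3′ on the gene's own strand, and capitals mark CACGTG or TCCCGC on either strand (GCGGGA is the latter on the other strand). The windows are Dazl at chr17:50293571-50293870 on the minus strand, Taf7l at chrX:134476441-134476740 on the minus strand, Sycp3 at chr10:88459337-88459636 on the plus strand and Mael at chr1:166238695-166238994 on the minus strand.
Dazl: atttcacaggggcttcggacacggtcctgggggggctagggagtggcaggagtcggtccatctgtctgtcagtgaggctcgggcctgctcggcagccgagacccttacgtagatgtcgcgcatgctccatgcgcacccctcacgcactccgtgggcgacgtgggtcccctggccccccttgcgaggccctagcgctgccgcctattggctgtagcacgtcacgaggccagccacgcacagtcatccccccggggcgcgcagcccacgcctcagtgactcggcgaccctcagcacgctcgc
Taf7l: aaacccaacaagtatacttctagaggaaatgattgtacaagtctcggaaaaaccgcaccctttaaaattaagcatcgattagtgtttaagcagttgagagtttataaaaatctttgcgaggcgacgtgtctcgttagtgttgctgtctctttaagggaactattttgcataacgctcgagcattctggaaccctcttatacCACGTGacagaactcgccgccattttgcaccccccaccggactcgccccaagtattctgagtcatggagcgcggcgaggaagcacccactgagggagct
Sycp3: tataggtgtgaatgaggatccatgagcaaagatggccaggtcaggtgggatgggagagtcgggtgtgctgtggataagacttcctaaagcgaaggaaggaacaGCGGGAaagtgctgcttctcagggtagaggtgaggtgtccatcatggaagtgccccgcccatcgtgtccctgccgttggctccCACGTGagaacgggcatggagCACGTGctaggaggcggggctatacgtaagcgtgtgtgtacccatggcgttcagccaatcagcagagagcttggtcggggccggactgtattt
Mael: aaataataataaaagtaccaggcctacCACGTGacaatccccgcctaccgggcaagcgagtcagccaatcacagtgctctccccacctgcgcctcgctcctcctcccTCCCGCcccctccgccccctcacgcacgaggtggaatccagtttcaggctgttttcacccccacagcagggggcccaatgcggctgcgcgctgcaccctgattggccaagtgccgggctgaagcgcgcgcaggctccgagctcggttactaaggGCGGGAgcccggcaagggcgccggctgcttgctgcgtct

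Among the genes that act on germ cell RNA, Dazl differed more than Ddx4 did. Dazl encodes an RNA-binding protein that controls translation in germ cells. It read 8.47 on both WT arrays, 8.35 on the mutant array labelled 1, 9.86 on replicate 2 and 9.74 on replicate 3. Replicates 2 and 3 were 2.62-fold and 2.41-fold of the WT mean and lay apart from the other 3 arrays. The difference was 0.84 over all 5 arrays (SE 0.52) and 1.33 without the mutant array labelled 1 (SE 0.08), or 2.51-fold. A further Dazl probe set, not chosen because its mean was lower, read 7.61 and 7.34 in WT and 7.47 on replicate 1. It read 9.18 and 8.97 on replicates 2 and 3, which again lay above the other 3 arrays, at 3.26-fold and 2.83-fold of WT. Ddx4, the mouse Vasa homologue and an RNA helicase of germ cells, read 8.22 and 8.24 in WT, 8.32 on replicate 1, 8.91 on replicate 2 and 8.34 on replicate 3. Its difference of 0.39 without replicate 1 (SE 0.21) came mainly from replicate 2, at 1.6-fold of WT, against 1.08-fold on replicate 3.

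Taf7l, a germ cell paralogue of a subunit of the general transcription factor TFIID, followed Dazl. It read 7.31 and 7.08 in WT, 7.16 on the mutant array labelled 1, 8.46 on replicate 2 and 8.20 on replicate 3. Replicates 2 and 3 were 2.40-fold and 2.01-fold of the WT mean. The difference was 0.74 over all 5 arrays (SE 0.43) and 1.14 without replicate 1 (SE 0.14).

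Of the genes of the meiotic chromosome axis and synaptonemal complex, Sycp3 had the largest difference. Sycp3, a component of the axial and lateral elements, had values of 11.28 and 11.22 in WT and 11.19 on the mutant array labelled 1. It read 9.55 and 9.75 on replicates 2 and 3, which were 0.309-fold and 0.353-fold of WT. The difference was -1.09 over all 5 arrays (SE 0.55) and -1.6 without replicate 1 (SE 0.10), or 3.03-fold lower. Sycp1, the transverse filament protein of the same structure, read 6.65 and 6.67 in WT, 6.71 on replicate 1, and 6.99 and 6.83 on replicates 2 and 3. Hormad1, which marks unsynapsed axes, read 7.31 and 7.12 in WT, 7.26 on replicate 1, and 7.52 and 7.53 on replicates 2 and 3. Without replicate 1 the differences of Sycp1 and Hormad1 were 0.26 (SE 0.09) and 0.31 (SE 0.09), and neither was called.

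Neither transposon-silencing gene was called. Mael, needed for silencing of transposons by the piRNA pathway, read 8.76 and 8.74 in WT, 8.75 on replicate 1 and 7.85 and 8.22 on replicates 2 and 3. The latter were 0.536-fold and 0.692-fold of WT, a difference of -0.71 (SE 0.15) without replicate 1 and of -0.48 (SE 0.28) over all 5 arrays. Asz1, an ankyrin-repeat protein of germ cell mitochondria in the same pathway, read 6.27 and 6.08 in WT, 6.26 on replicate 1, 6.51 on replicate 2 and 6.73 on replicate 3. The difference without replicate 1 was 0.45 (SE 0.12). The other Asz1 probe set lay below the median of all probe sets, between 4.91 and 5.01 on the 5 arrays, and showed no such step.

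Of the remaining genes, Slc25a31 encodes a testis form of the mitochondrial ADP/ATP carrier. It read 9.09 and 9.0 in WT, 9.09 on replicate 1, 9.57 on replicate 2 and 9.14 on replicate 3. As in Ddx4, replicate 2 stood alone, at 1.43-fold of WT against 1.06-fold. Stk31, a Tudor domain protein kinase, read 7.67 and 7.63 in WT, 7.54 on replicate 1 and 7.61 on both other mutant arrays. Its difference without replicate 1 was -0.04 (SE 0.07), and its other probe set read 7.35 on both WT arrays, 7.34 on replicate 1, 7.0 on replicate 2 and 7.35 on replicate 3. Replicate 2 was farther from WT than replicate 3 in 7 of the 10 genes, and replicates 2 and 3 were farther apart than the WT arrays in 8 of 10.

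Over all 5 arrays as labelled, 0 of the 10 genes passed, and 0 had an unadjusted p under 0.05. Of all 18193 genes 0 passed as well (0%; limma, Benjamini-Hochberg adjusted over all genes, threshold 0.05; 214 genes had an unadjusted p under 0.05). Each of the 10 had an adjusted p of 0.748. The mutant arrays were all above both WT arrays for 2 of 10, Ddx4 and Sycp1 (5.73% of all genes), and all below them for 2 of 10, Sycp3 and Stk31 (6.29%). The median difference was 0.22 in the 10 genes and 0.02 in all genes.

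Without the mutant array labelled 1, genes above the median of all probe sets on at least 2 of the 4 arrays were tested, 11626 genes that include all 10. Of these genes 4.64% were called, 3.29% higher and 1.34% lower. Dazl and Taf7l were called higher (limma, adjusted p = 0.0391 and 0.0464) and Sycp3 lower (0.0391). The other 7 were not called, with adjusted p from 0.0729 for Mael to 0.737 for Stk31. Before adjustment, 7 of the 10 had a limma p under 0.05, against 28.8% of the genes tested. In size, 3 of 10 differed by at least 2-fold (1.31% of the genes tested). The arrays did not overlap with WT for any of the 10, with 7 above (35.2% of the genes tested) and 3 below (22.1%). The median difference was 0.31 in the 10 genes and 0.05 in the genes tested. That array was set aside for its values and the genes were proposed with results of these data known, so these p-values are too favourable and are a description.

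The 3 calls did not survive the loss of a WT array. Without WT replicate 1 the adjusted p of Dazl, Taf7l and Sycp3 was 0.590, and without WT replicate 2 it was 0.594, with 0 genes called in either case and the lone WT array assumed to vary like the mutant arrays. The differences themselves were then 1.33 and 1.33 for Dazl, 1.25 and 1.02 for Taf7l, and -1.57 and -1.63 for Sycp3. With dim probe sets kept, the adjusted p was 0.0785 for Dazl and Sycp3 and 0.0834 for Taf7l. Taf7l also did not pass without replicate 2 or replicate 3, where the lone mutant array was assumed to vary like the WT arrays. The calls of Mael in both of these fits, and of Ddx4 and Sycp1 without replicate 3, rest on the same assumption. Without replicate 2 and without replicate 3, the differences were 1.01 and 1.26 for Taf7l and -0.53 and -0.90 for Mael. For Ddx4 they were 0.11 and 0.68, and for Sycp1 0.18 and 0.33. With all 4 arrays, Mael passed when a gene's probe sets were averaged (limma adjusted p = 0.0457, with 14% of genes called).

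**Figure D2:**
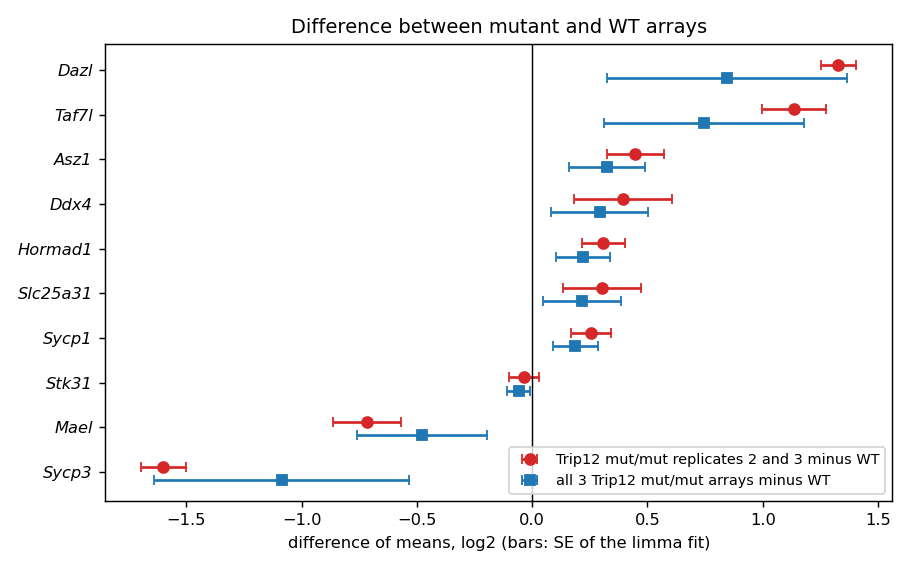
Difference between mutant and WT means on the log2 scale for each gene, over all 5 arrays (squares) and without the mutant array labelled 1 (circles); bars are SEs of the limma fits. Dazl (1.33) and Taf7l (1.14) lie highest and Sycp3 (-1.6) lowest without that array, and each is nearer to 0 with it.

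The promoters are rich in CpG, which the probe set rule did not use but which these genes are known for. A window was available for all 10 genes, and where RefSeq lists several starts, as for Hormad1 and Stk31, the most upstream was taken. The windows held 15 to 38 CpG, with a median of 23, against 7 over all 27025 promoter windows and 13 over 17492 of protein-coding genes. The ratio of observed to expected CpG was at least 0.6 in 10 of 10, against 48.4% of protein-coding windows. It lay between 0.666 for Sycp3 and 1.03 for Taf7l. Protein-coding windows with a ratio of at least 0.6 had a median of 25 CpG, so the CpG count is not particular to the 10 genes. CACGTG, the same on both strands, was found in 8 of 10 windows, all but those of Dazl and Asz1. It occurs in 7.24% of all windows, 7.91% of protein-coding windows and 11.5% of the 8466 protein-coding windows with such a CpG ratio. TCCCGC on either strand was found in 6 of 10, against 20.1%, 25.8% and 43.6%, and all 6 also held CACGTG, against 2.05%, 2.74% and 4.96%. No match of one overlapped a match of the other in these windows. A match is a description of the letters and not a binding site.

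**Figure D3:**
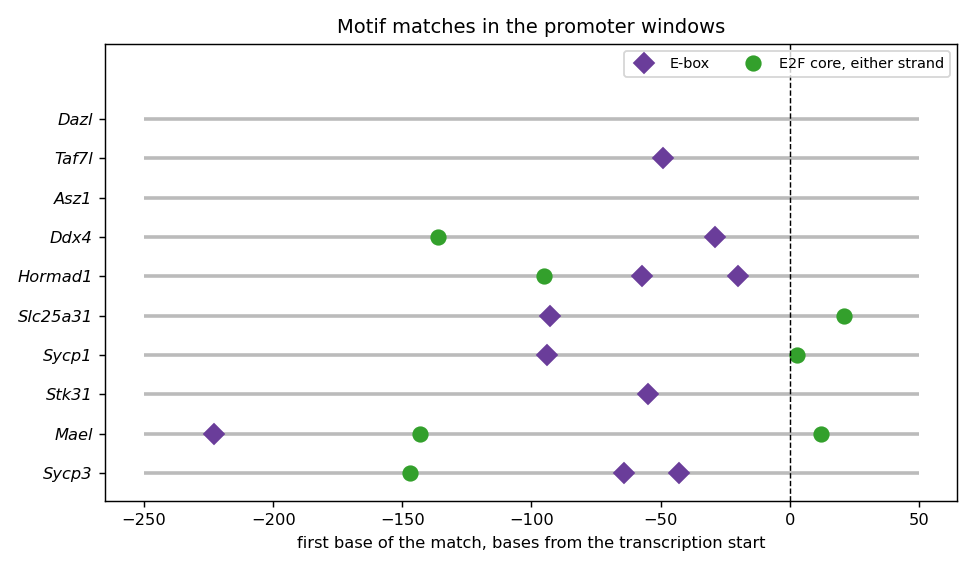
First base of each match to CACGTG (diamonds, E-box) and TCCCGC (circles, E2F core, either strand) in the 10 promoter windows, in bases from the transcription start, with genes ordered from the most positive to the most negative difference without the mutant array labelled 1. Dazl and Asz1 have neither, and 9 of the 10 E-box matches lie within 94 bases before the start.

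Sycp3 held CACGTG at 64 and 43 bases before the start and TCCCGC at 147 bases before it. Hormad1 held CACGTG at 57 and 20 bases and TCCCGC at 95 bases before its start. Taf7l held CACGTG alone, at 49 bases before the start, and Dazl, the gene with the largest positive difference, held neither in this window. Mael held its CACGTG farthest out, at 223 bases.

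Of the other genes of these pathways, 6 of 68 tested passed (8.82%, against 4.64% of all genes tested), 2 higher and 4 lower. The lists below were drawn up with earlier results of these data known, and calls refer to the 4 arrays without the mutant array labelled 1. Of 24 other meiosis genes measured, 15 were tested and 0 passed in limma, with a median difference of -0.09 over the 24. An unadjusted p under 0.05 was found for 7 of the 15, against 28.8% of all genes tested. Meioc, which sustains the meiotic programme, read 7.81 and 7.69 in WT, 7.75 on replicate 1, and 6.65 and 7.04 on replicates 2 and 3, a difference of -0.91 (adjusted p = 0.0594 in limma). Tex15, a testis-expressed gene needed for meiotic recombination, had a difference of 0.64 (0.171). Of 16 piRNA pathway genes 10 were tested, and 1 was called higher and 0 lower, against 3.29% and 1.34% of all genes tested. The median difference was -0.03 over the 16. In limma 2 of the 10 had an unadjusted p under 0.05, against 28.8% of all genes tested. The gene called was Gtsf1, a piRNA cofactor, at 7.62 and 7.68 in WT, 7.71 on replicate 1, and 8.66 and 8.42 on replicates 2 and 3 (0.89, adjusted p = 0.0467). The Tudor domain gene Tdrkh had a difference of -0.44 (0.104).

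Of 9 germ cell specification genes measured and tested, 0 were called higher and 2 lower, against 3.29% and 1.34% of all genes tested. Their median difference was 0.18, and 6 had an unadjusted limma p under 0.05, against 28.8% of all genes tested. Dppa3, a maternal and primordial germ cell factor, read 9.82 on both WT arrays, 9.79 on replicate 1, and 7.67 and 7.76 on replicates 2 and 3 (-2.10, limma adjusted p = 0.0243). The RNA-binding protein gene Lin28a was lower by a difference of -0.97 (0.0422).

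Among the repressors, 0 of the 19 measured genes passed in limma. This list holds PRC1.6 genes and their E2F partners, and also Setdb1 and Atf7ip. Of the 19, 1 had an unadjusted p under 0.05, against 28.8% of all genes tested, and the median difference was -0.12. The differences furthest from 0 were those of Tfdp1 (-0.44, adjusted p = 0.253 in limma) and of the chromobox gene Cbx1 (-0.39, 0.149). Of 16 DNA methylation genes 15 were tested, and 2 were called lower and 1 higher, against 1.34% and 3.29% of all genes tested. Their median difference was -0.07, and 7 had an unadjusted limma p under 0.05, against 28.8% of all genes tested. Dnmt3b read 12.36 and 12.34 in WT, 12.37 on replicate 1, and 10.54 and 10.80 on replicates 2 and 3 (-1.69, adjusted p = 0.0413). Dnmt3a had a difference of -1.03 (0.0420) and Mbd2, a methyl-CpG binding protein gene, of 0.77 (0.0426). These genes moved on the same 2 arrays as Dazl, Taf7l and Sycp3, and their part in those values was not tested. Each call in these lists was lost without either WT array, where 0 genes were called.

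**Figure D4:**
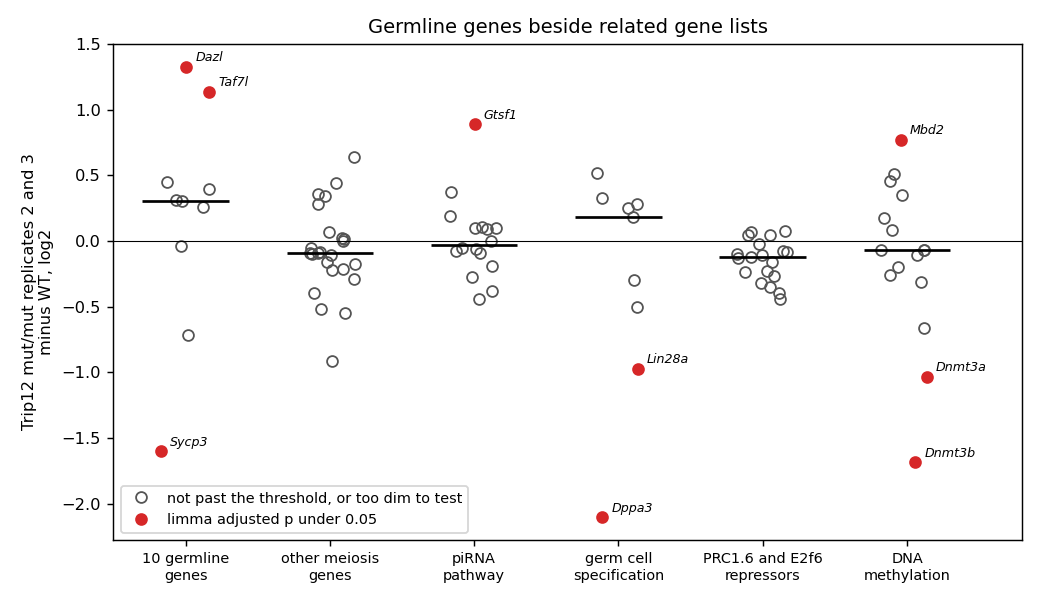
Difference between Trip12 mut/mut replicates 2 and 3 and WT on the log2 scale for the 10 germline genes and 5 related lists; each point is a gene, filled where limma's adjusted p was under 0.05, and bars are list medians. The germline genes span -1.6 to 1.33 with a median of 0.31, and the median of the repressors is -0.12.

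The genes whose pattern over the 5 arrays was nearest to each of the 3 germline genes with the largest differences were found by Euclidean distance between values minus the WT mean, over all 18193 genes. Nearest to Sycp3 were Fgf15 (distance 0.10), Dnmt3b (0.15) and Grhl2 (0.21). Nearest to Dazl were Timp3 (0.13), one of the fibroblast markers called higher on the same arrays, Aard (0.17) and Calcoco2 (0.18). Nearest to Taf7l were Fat4 (0.10), Il13ra2 (0.13) and Kbtbd11 (0.14). The distances rest on 5 arrays that all these genes share, of which 3 are alike.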

How the data were processed

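RNA of 5 samples was hybridised to Affymetrix arrays from 6 µg of total RNA, per the labels' protocols. The deposited values are log2 values made by the authors with RMA, per the submitters' processing notes. RMA subtracts background, makes the arrays' distributions alike and combines the probes of a probe set, so a change common to every transcript is removed. No RMA version is given in the sources used here. The values carry no detection call, and precision is limited by the 5 arrays.

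Of 45101 probe sets 64 controls were left out. Of the rest 34945 had 1 symbol, 932 several and 9160 none, and 34741 symbols were updated through a RefSeq table of GRCm38.p6. The test was limma 3.58.1 (R 4.3.3; a linear fit on genotype alone with eBayes, two-sided, adjusted by Benjamini-Hochberg over all genes), tested on simulated data. Promoters were scanned in Python 3.11.15. The members, lists and the comparison that leaves out Trip12 mut/mut replicate 1 were chosen with earlier results of these data known. All 10 members were named. In each list up to 4 called genes with the smallest adjusted p were named, or, where fewer than 2 were called, the 2 with the largest absolute difference.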

Additional observations from a re-analysis of the deposited data

How the results depend on the processing

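Over all 5 arrays, 0 genes and 0 of the 10 germline genes were called by limma under quantile normalisation, median centring, removal of dim probe sets, both other ways to represent a gene, a variance trend, array weights and each array left out (0 to 0). The fit with the replicate number as a block also called 0 genes. The labels do not say that a number marks shared material, and same-numbered arrays correlated at -0.04 and -0.08 in their deviations from the group means. No block could be fitted without the mutant array labelled 1, since the groups then share 1 number. All 10 genes kept the sign of their difference in the alternatives run for both comparisons. Without that array, the 539 genes called became 1000 with quantile normalisation and 1461 with a gene's probe sets averaged. The related genes called went from 15 to 25 and 28. In this section the related genes include the embryonic stem cell and fibroblast markers, and 6 of the 15 belonged to the 5 pathway lists. Without the filter on dim probe sets, or with all 5 arrays and the same genes, 0 genes, 0 germline genes and 0 related genes were called. With each further array left out the ranges were 0 to 4912 genes, 0 to 5 of the 10 germline genes and 0 to 61 related genes, where a lone array was assumed to vary like the other group. Apart from the array left out and the genes tested, the cause was not tested. No detection limit or depth is available for RMA values, so low values cannot be told from background.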

Other observations

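The promoter windows of the related lists were searched for the same motifs, as a description. CACGTG was present in 6 of 15 windows of piRNA pathway genes, in 3 of 20 of the other meiosis genes and in 0 of 6 of germ cell specification genes. TCCCGC was present in 3 of 15, 10 of 20 and 1 of 6. Both motifs occurred together in 2 meiosis genes, Stag3 and Tex12, and in 0 piRNA pathway genes. The windows of the DNA methylation genes held CACGTG in 1 of 15, and those of the repressor list in 3 of 17. For TCCCGC the counts were 8 of 15 and 8 of 17, and Ehmt2 and Tfdp1 of the latter list held both motifs.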
